A study of Homo sapiens with 6 samples.

Results

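The DNA replication genes PCNA, MCM2, MCM3, MCM7 and CCNE2 were examined in ARPE-19, an established human line of retinal pigment epithelium (RPE). These 5 genes, of 7758 in the deposited table, were taken by their symbols. They had been chosen by their lower level in METTL3-silenced cells in these same libraries, so their own differences are given as a description and without a test. METTL3 had been silenced with a hairpin RNA (sh-METTL3 cells), and the comparison cells expressed a control hairpin (sh-Control cells). The METTL3 hairpin was delivered by lentivirus, and stably transformed strains were then selected. METTL3 is the catalytic subunit of the enzyme that writes N6-methyladenosine into mRNA. All cells of both groups had received lipopolysaccharide (LPS, a bacterial product that provokes inflammation) at 1 μg/ml for 24 h, and each group had 3 RNA sequencing libraries. Separate infections or cultures behind the 3 libraries are not stated in the sources used here, so p-values measure the spread between these samples, which may be technical.

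DNA replication begins when origins are licensed in G1 phase. The origin recognition complex and its partners load the MCM2-7 complex, a ring of 6 related subunits that later unwinds the DNA. Cyclin E, encoded by CCNE1 and CCNE2, activates the kinase CDK2 at the passage from G1 into S phase. At the fork, PCNA forms a ring around DNA that tethers the polymerases and many repair and chromatin proteins. Genes of this machinery are classic targets of the E2F transcription factors, and PCNA and the MCM proteins are widely used as markers of proliferating cells. RPE cells seldom divide in the adult eye, whereas ARPE-19 cells divide in culture.

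The promoters are shown first, because all 4 genes with a RefSeq promoter window carried an E2F word in it. Each line holds 220 bases, from 200 before to 20 after the transcription start, 5′ to 3′ on the strand of the gene, from RefSeq on GRCh38.p14. The capitals mark the words TTTCCCGC, TTTCGCGC, TTTGCCGC or TTTGGCGC or their reverse complements. CCNE2 had no entry.
PCNA, chr20:5126603-5126822, minus strand: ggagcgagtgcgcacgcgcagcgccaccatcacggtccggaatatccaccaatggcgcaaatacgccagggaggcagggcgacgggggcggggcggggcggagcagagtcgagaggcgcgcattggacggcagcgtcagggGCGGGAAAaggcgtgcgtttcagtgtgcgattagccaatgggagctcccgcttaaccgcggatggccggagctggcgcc
MCM2, chr3:127598211-127598430, plus strand: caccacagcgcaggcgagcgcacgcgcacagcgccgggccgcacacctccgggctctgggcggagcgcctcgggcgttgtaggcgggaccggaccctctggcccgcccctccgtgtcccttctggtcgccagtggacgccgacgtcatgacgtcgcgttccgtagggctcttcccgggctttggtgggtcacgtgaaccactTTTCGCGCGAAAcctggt
MCM3, chr6:52284723-52284942, minus strand: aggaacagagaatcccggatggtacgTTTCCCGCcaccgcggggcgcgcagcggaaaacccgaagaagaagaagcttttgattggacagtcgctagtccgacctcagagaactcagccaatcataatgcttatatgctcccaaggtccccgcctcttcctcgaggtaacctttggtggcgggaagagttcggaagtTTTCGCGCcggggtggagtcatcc
MCM7, chr7:100101378-100101597, minus strand: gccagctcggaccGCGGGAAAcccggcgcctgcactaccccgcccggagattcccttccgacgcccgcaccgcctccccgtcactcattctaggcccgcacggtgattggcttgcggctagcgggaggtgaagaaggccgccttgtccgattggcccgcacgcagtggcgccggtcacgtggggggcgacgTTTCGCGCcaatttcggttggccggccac
In PCNA the word began 59 bases before the start. In MCM2 a pair of overlapping words on opposite strands made up 1 stretch just after the start. MCM3 and MCM7 each held 2 words, 1 of them within 10 bases of the start. The other window of PCNA and the other 2 windows of MCM7, which belong to alternative starts, held no such word. In whole windows of 300 bases, from 250 before to 50 after the start, 1090 of the 27305 genes with a window (3.99%) held an E2F word. The share was 345 of 5590 (6.17%) among the listed genes with a window. CCAAT, read on both strands, was found in the windows of PCNA, MCM3 and MCM7 but not of MCM2, and in 39.7% of all genes. It overlapped the E2F word nearest to the start of MCM7 by 1 base. A match of letters is a description and not a bound site.

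The values are read counts divided by 1 size factor per library, called scaled counts here. All 7758 listed genes had an adjusted p-value of at most 0.05 in the authors' own test of these libraries. The list is therefore preselected, and counts of genes describe the list and not the transcriptome. The limma p-values given here come from these same libraries and were adjusted over these genes only. Passing that test is therefore no independent support. A library held between 10898434 and 17750052 reads on these genes. No listed gene was left out. The targeted gene was lower in the METTL3-silenced cells. METTL3 averaged 1118 ± 32.8 (SD, n = 3) scaled counts in the control and 911 ± 128 (SD, n = 3) in the silenced cells, a log2 difference of -0.30 (SE 0.097, limma adjusted p = 0.0108), or -0.18 without sh-METTL3 replicate 3. The median over all listed genes was -0.21, or -0.19 without that library. Without it, the difference of METTL3 was thus smaller in size than the median. With RLE factors in edgeR METTL3 missed the threshold, with a log2 difference of -0.17 and an adjusted p of 0.0881, beside a median of -0.09. Of 13 RPE markers 8 were listed. Of these, 5 rose, among them the keratin KRT8 from 10761 to 22324, and 3 fell, among them SERPINF1, a secreted antiangiogenic factor, from 1404 to 170. RPE65, RLBP1, TYR, TTR and OTX2 were not among the listed genes, so the identity of the cells could be checked only in part. In these bulk libraries, fewer cells of a type, such as cells in S phase, and less RNA per cell cannot be told apart.

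All 5 replication genes were lower in sh-METTL3 cells, from 58.5% of the sh-Control mean for CCNE2 to 82.6% for MCM7. For each of them the 3 sh-METTL3 libraries lay below the 3 sh-Control libraries. The background is high, since 51.7% of all listed genes also had all sh-METTL3 libraries below all sh-Control libraries, and the members were chosen on this contrast. The median log2 difference of all listed genes was -0.21. In each of the 5 genes sh-METTL3 replicate 3 was the lowest of the 6 libraries.

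PCNA (ENSG00000132646, GRCh38 chromosome 20, 5114953 to 5126626, minus strand) encodes the sliding clamp. Its scaled count was 2542, 2638 and 2444 in sh-Control replicates 1, 2 and 3, and 2051, 2081 and 1550 in sh-METTL3 replicates 1, 2 and 3. The sh-METTL3 replicates 1 and 2 were alike, and replicate 3 stood apart below them. The mean was 2541 ± 97.0 (SD, n = 3) in sh-Control cells and 1894 ± 298 (SD, n = 3) in sh-METTL3 cells. This is a log2 difference of -0.44, or -0.30 without sh-METTL3 replicate 3.

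MCM2 (ENSG00000073111, chromosome 3, 127598223 to 127622436, plus strand) is a subunit of the replicative helicase. Its scaled count was 993, 985 and 941 in the sh-Control replicates and 725, 760 and 511 in the sh-METTL3 replicates. The highest sh-METTL3 library lay further below the lowest sh-Control library than the sh-Control libraries lay from each other. The mean was 973 ± 27.9 (SD, n = 3) against 665 ± 135 (SD, n = 3), a log2 difference of -0.57, or -0.39 without sh-METTL3 replicate 3.

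MCM3 (ENSG00000112118, chromosome 6, 52264009 to 52284881, minus strand) sits in the same ring. Its scaled count was 1475, 1592 and 1456 in the sh-Control replicates and 1373, 1329 and 909 in the sh-METTL3 replicates. Here the groups nearly met, and replicate 3 carried most of the difference. The mean was 1508 ± 73.6 (SD, n = 3) against 1204 ± 256 (SD, n = 3). The log2 difference of -0.35 became -0.16 without sh-METTL3 replicate 3, which is smaller in size than the median of -0.19 over all listed genes in the same 5 libraries. With RLE factors in edgeR it was -0.20, beside a median of -0.09.

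MCM7 (ENSG00000166508, chromosome 7, 100092728 to 100101940, minus strand) had the highest scaled counts of the 3 helicase subunits and the smallest relative difference. Its scaled count was 3602, 3663 and 3449 in the sh-Control replicates and 3214, 3326 and 2309 in the sh-METTL3 replicates. The mean was 3571 ± 110 (SD, n = 3) against 2950 ± 558 (SD, n = 3). The log2 difference of -0.29 was close to the median of all listed genes, and without sh-METTL3 replicate 3 it was -0.13. With RLE factors in edgeR it was -0.15, where the median of all listed genes was -0.09. MCM4, MCM5 and MCM6, which complete the ring, were not among the listed genes and were not analysed here.

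CCNE2 (ENSG00000175305, chromosome 8, 94879770 to 94896678, minus strand) encodes cyclin E2 and had the largest relative difference of the 5 genes and the fewest reads. Its scaled count was 110, 132 and 113 in the sh-Control replicates and 88.6, 69.6 and 49.3 in the sh-METTL3 replicates. These values rest on 121 to 138 reads per sh-Control library and 44 to 95 per sh-METTL3 library, so counting error is largest here. The sh-METTL3 replicates were spread evenly, with no 1 library apart. The mean was 118 ± 11.7 (SD, n = 3) against 69.2 ± 19.7 (SD, n = 3), a log2 difference of -0.80, or -0.58 without sh-METTL3 replicate 3.

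**Figure D1:**
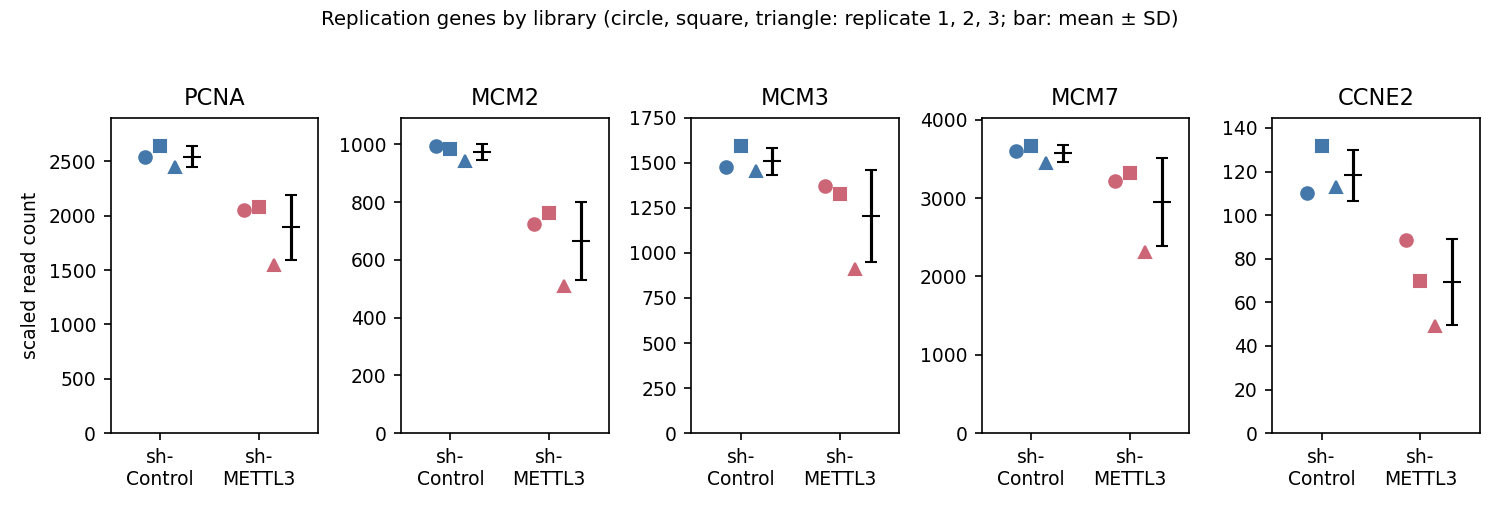
Scaled read count of PCNA, MCM2, MCM3, MCM7 and CCNE2 in each of the 6 libraries, with a linear axis from 0 for each gene. Circles, squares and triangles are replicates 1, 2 and 3, and the bar beside each group is the mean ± SD. In every panel the sh-METTL3 points lie below the sh-Control points and the triangle of sh-METTL3 replicate 3 is the lowest.

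Per kilobase of the deposited gene length, the order of the levels was PCNA, MCM7, MCM3, MCM2 and CCNE2 in both groups. How that length was counted is not stated in the sources used here, and levels per kilobase rest on it. In sh-Control cells the scaled counts per kilobase were 1728 ± 66.0, 814 ± 25.1, 413 ± 20.2, 199 ± 5.68 and 26.9 ± 2.65 (SD, n = 3) in that order. In sh-METTL3 cells they were 1287 ± 203, 673 ± 127, 330 ± 70.1, 136 ± 27.6 and 15.7 ± 4.48 (SD, n = 3). Neighbours in this order did not overlap in any library, although MCM2, MCM3 and MCM7 proteins join the same ring.

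Ratios of 2 genes within a library do not depend on how libraries were scaled. MCM2 relative to MCM7, as reads per kilobase, was 0.247, 0.241 and 0.244 in the sh-Control replicates and 0.202, 0.205 and 0.198 in the sh-METTL3 replicates. The groups were far apart in this ratio, and sh-METTL3 replicate 3 lay with replicates 1 and 2. The mean ratio was 0.244 ± 0.00308 (SD, n = 3) against 0.201 ± 0.00335 (SD, n = 3). Relative to MCM7, MCM2 was thus lower in all 3 sh-METTL3 libraries. MCM3 relative to MCM7 was 0.492, 0.522 and 0.507 in the sh-Control replicates and 0.513, 0.480 and 0.473 in the sh-METTL3 replicates, and the groups overlapped. PCNA relative to MCM7 was 2.12 ± 0.0232 (SD, n = 3) in sh-Control cells and 1.92 ± 0.0701 (SD, n = 3) in sh-METTL3 cells, with no overlap. The ratios were formed after the values had been seen and were not tested.

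The 2 cyclin E genes had opposite differences. CCNE1, which encodes cyclin E1, had a scaled count of 144, 145 and 142 in the sh-Control replicates and 221, 215 and 209 in the sh-METTL3 replicates. It was higher in every sh-METTL3 library, with a log2 difference of 0.58 (SE 0.11, limma adjusted p = 0.000906). Replicate 3 did not stand apart. CCNE2 made up 30.8%, 34.5% and 31.6% of the summed cyclin E reads per kilobase in the sh-Control replicates and 18.9%, 15.8% and 12.0% in the sh-METTL3 replicates. The mean share was 32.3% ± 1.94 (SD, n = 3) against 15.6% ± 3.43 (SD, n = 3), so CCNE2 held a smaller share in all 3 sh-METTL3 libraries. CDC25A, the phosphatase that activates CDK2, fell from 345 ± 5.55 (SD, n = 3) to 165 ± 31.4 (SD, n = 3), a log2 difference of -1.07 (limma adjusted p = 6.3e-05). CDK2 itself was not among the listed genes.

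**Figure D2:**
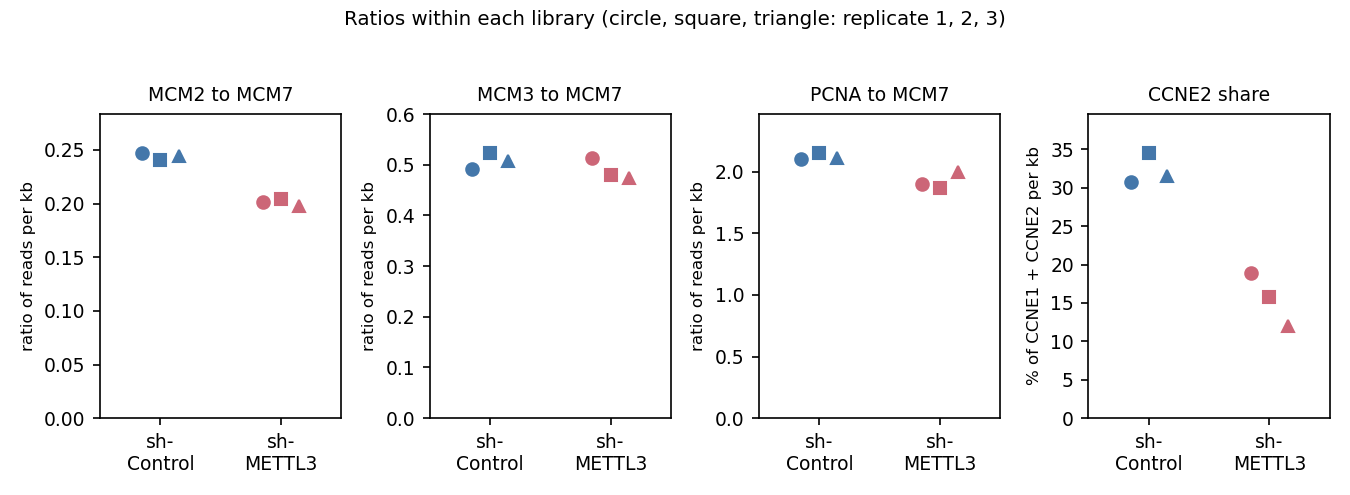
Ratios of reads per kilobase within each library for MCM2 to MCM7, MCM3 to MCM7 and PCNA to MCM7, and CCNE2 as a percentage of CCNE1 plus CCNE2, with linear axes from 0. Circles, squares and triangles are replicates 1, 2 and 3. The MCM2 to MCM7 ratio averages 0.244 in sh-Control and 0.201 in sh-METTL3 cells and the CCNE2 share 32.3% and 15.6%, with no overlap, while the MCM3 to MCM7 groups overlap.

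The rest of the pathway was read from lists of 119 other genes, 86 of replication and 33 of the control of entry into S phase. Of the 119, 51 were listed, and all 51 passed the limma test, as did 7747 of all 7758 listed genes. Of these 51, 47 fell and 4 rose in sh-METTL3 cells. Over all listed genes, 52.2% fell and 47.6% rose, so most listed genes of either direction passed, and the split of 92.2% lower is what stands beside that background. The median log2 difference of the 51 genes was -0.54, against -0.21 over all listed genes. Without sh-METTL3 replicate 3 these medians were -0.42 and -0.19. With RLE factors in edgeR they were -0.42 and -0.09. In that fit 35 of the 51 genes passed as lower and 4 as higher, beside 3335 and 3704 of the 7758 listed genes.

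All 3 listed MCM proteins outside the ring fell. MCM10, which helps to start unwinding, went from 257 ± 29.3 (SD, n = 3) to 125 ± 41.4 (SD, n = 3), a log2 difference of -1.08 (SE 0.23, limma adjusted p = 0.00132). MCMBP, a binding partner of MCM proteins, had a log2 difference of -0.54 and MCM8, a helicase of recombination, of -0.46, which was -0.27 without sh-METTL3 replicate 3 and missed the threshold with adjustment as if 60000 genes had been tested (adjusted p = 0.0789). Origin licensing had 3 of 9 genes listed, and all fell. CDC6, a loader of the ring, went from 461 ± 29.5 (SD, n = 3) to 265 ± 39.4 (SD, n = 3), while the origin recognition subunits ORC3 and ORC4 had log2 differences of -0.47 and -0.39.

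Origin firing and fork protection had 7 of 17 genes listed, of which 6 fell. TICRR, among the 6, missed the threshold with RLE factors, with DESeq2 and with adjustment as if 60000 genes had been tested. The fork protection protein CLSPN went from 412 ± 20.2 (SD, n = 3) to 194 ± 44.5 (SD, n = 3), and the log2 difference was -0.87 for the firing kinase CDC7 and -0.70 for the helicase cofactor CDC45. DBF4B, an activating subunit of CDC7, was the exception and rose from 351 ± 30.7 (SD, n = 3) to 557 ± 74.2 (SD, n = 3), with a limma adjusted p of 0.000443. Beside PCNA, 3 of 10 clamp genes were listed and fell. The clamp loader subunits RFC3 and RFC4 had log2 differences of -0.56 and -0.33, and without sh-METTL3 replicate 3 that of RFC3 was -0.27. Leaving out a control library ended the call of RFC3 (limma adjusted p = 0.0685 without replicate 1 and 0.0632 without replicate 2) and of RFC4 (limma adjusted p = 0.0534 without sh-Control replicate 3). With RLE factors in edgeR both missed the threshold, RFC3 with an adjusted p of 0.0627 and RFC4 with a log2 difference of -0.20 and an adjusted p of 0.1. RFC4 was also lost with DESeq2 (adjusted p = 0.133) and RFC3 without the intensity trend (limma adjusted p = 0.0715). With adjustment as if 60000 genes had been tested, RFC3, RFC4 and DSCC1, the third of these genes, all missed it.

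Of the 12 genes of polymerases and primase 9 were listed, and 8 of them fell. POLD3, a subunit of polymerase delta that binds PCNA, went from 1130 ± 43.0 (SD, n = 3) to 509 ± 68.0 (SD, n = 3), a log2 difference of -1.16. POLA2 of polymerase alpha and POLD1, the catalytic subunit of polymerase delta, had log2 differences of -1.12 and -0.79. POLE4, a small accessory subunit of polymerase epsilon, rose from 257 ± 26.2 (SD, n = 3) to 406 ± 5.95 (SD, n = 3), with a limma adjusted p of 0.000215, and is named because it was the only exception in its list. Of the remaining genes that fell, POLD4 lost its call with RLE factors and with DESeq2, POLA1 with DESeq2, and POLA1, PRIM1 and POLE2 with adjustment as if 60000 genes had been tested. Of 12 genes of the lagging strand and of unwinding 5 were listed, and all fell, among them the flap nuclease FEN1, another PCNA partner, from 1045 ± 62.7 (SD, n = 3) to 681 ± 147 (SD, n = 3). RPA2 and RNASEH2B lost their calls with RLE factors and with DESeq2, and RNASEH2B also with 60000 tests.

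Nucleotide supply had 3 of 10 genes listed, and all fell. They do not act alike. DUT, which keeps uracil out of DNA, went from 1245 ± 53.3 (SD, n = 3) to 682 ± 52.1 (SD, n = 3). SAMHD1, which breaks deoxynucleotides down, went from 4068 ± 165 (SD, n = 3) to 1332 ± 455 (SD, n = 3). The third was RRM2B, a subunit of ribonucleotide reductase used outside S phase, with a log2 difference of -0.20. Its call was lost with RLE factors in edgeR (log2 difference -0.08, adjusted p = 0.187) and with DESeq2 (adjusted p = 0.205). Chromatin assembly and maintenance at the fork had 7 of 9 genes listed, and all 7 fell, although DNMT1 and MMS22L each lost the call in 6 of 15 alternatives and ASF1B in 5. For MMS22L these included leaving out sh-METTL3 replicate 3, and for DNMT1 leaving out sh-Control replicate 1 or 2. The log2 difference was -0.88 for the histone chaperone ASF1A, -0.73 for UHRF1, which recruits the maintenance DNA methyltransferase, and -0.59 for CHAF1A, the assembly factor subunit that binds PCNA.

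In the control of entry into S phase, 9 of the 11 listed genes other than CCNE2 fell, and CCNE1 and TFDP2 rose. CDK6, a kinase of cyclin D, went from 7904 ± 256 (SD, n = 3) to 3493 ± 122 (SD, n = 3), and its partner CCND3 had a log2 difference of -0.39. Both listed CDK inhibitors, which brake entry into S phase, fell as well. CDKN1C, a low gene, went from 57.1 to 19.5. CDKN1B had a log2 difference of -0.28, but with RLE factors in edgeR it was -0.15 and missed the threshold (adjusted p = 0.0811), as it did with DESeq2 (adjusted p = 0.098). Of the E2F genes, the repressor E2F7 went from 1624 ± 216 (SD, n = 3) to 778 ± 61.6 (SD, n = 3), and E2F6 and E2F3 had log2 differences of -0.70 and -0.40. E2F4, the other that fell, lost its call with RLE factors and with DESeq2. TFDP2, a dimer partner of E2F proteins, rose from 1264 ± 47.1 (SD, n = 3) to 1700 ± 43.2 (SD, n = 3), with a limma adjusted p of 6.96e-05. E2F1 and E2F2 were not among the listed genes.

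An E2F word stood in the promoter window of 16 of the 35 other listed replication genes that have a window (45.7%) and in 11 of the 36 replication genes that were not listed (30.6%). In mitosis markers it stood in 1 of 11 (9.09%). CCAAT had another spread, with 57.1% of the other listed replication genes, 61.1% of those that were not listed and 90.9% of the mitosis markers. These shares are given without a test.

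The low level of sh-METTL3 replicate 3 was shared with much of the machinery. For the 5 members, its level was between 62.3% and 75% of the mean of sh-METTL3 replicates 1 and 2. For all of them, sh-Control replicate 3 lay between 93.6% and 95.2% of the mean of sh-Control replicates 1 and 2. Of the other 40 listed replication genes, 23 (57.5%) had sh-METTL3 replicate 3 below 80% of the mean of replicates 1 and 2, and so did 918 of all 7758 listed genes (11.8%). All 8 listed mitosis markers did so too, but 1 of the 11 other genes of S phase entry and none of the 8 RPE markers. The median level in sh-METTL3 replicates 1, 2 and 3 was 77.5%, 71.8% and 57.0% of the sh-Control mean for the other replication genes, and 185%, 173% and 116% for the mitosis markers. So the median replication gene was below the sh-Control mean in all 3 libraries and the median mitosis marker above it, with replicate 3 lowest in both. METTL3 itself was also lowest in replicate 3, with 966, 1001 and 765 in sh-METTL3 replicates 1, 2 and 3. The part of this library in the results was not tested beyond the values given without it.

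**Figure D3:**
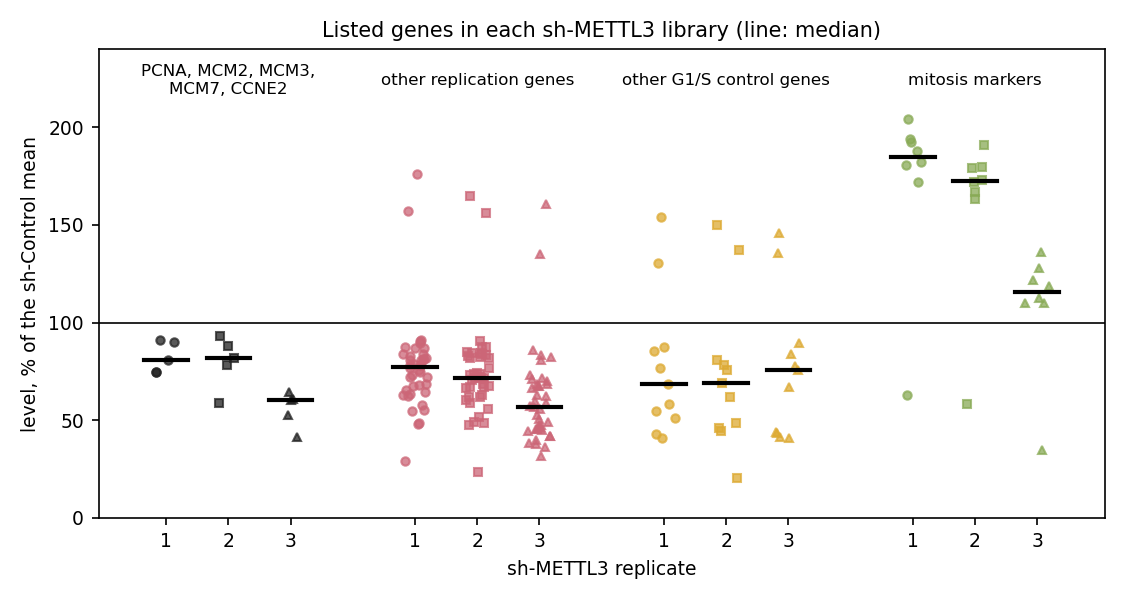
Level of each listed gene in sh-METTL3 replicates 1, 2 and 3 as a percentage of its sh-Control mean, which is the line at 100, for the 5 members, the other replication genes, the other genes of S phase entry and the mitosis markers. Each point is a gene and each thick bar a median. The medians of the members are 80.7%, 81.9% and 60.3% and those of the mitosis markers 185%, 173% and 116%.

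Most listed mitosis markers were not lower with the replication genes. Of 12, 8 were listed, and 7 of the 8 rose, beside 47.6% of all listed genes. MKI67, CDK1, AURKB and KIF11 were not among the listed genes. CDC20, an activator of the anaphase promoting complex, went from 670 ± 15.9 (SD, n = 3) to 1188 ± 242 (SD, n = 3), and CCNB1, cyclin B1, from 1032 ± 12.9 (SD, n = 3) to 1718 ± 351 (SD, n = 3). The checkpoint kinase BUB1B fell, from 599 ± 8.98 (SD, n = 3) to 311 ± 90.1 (SD, n = 3), with a limma adjusted p of 0.000686.

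The profile of each member over the 6 libraries was compared with those of the other protein-coding genes with a mean of at least 100, by the root mean square distance of log2 levels, each gene centred on its own mean. These nearest genes are a description over 6 libraries. The nearest to PCNA were ADAM19, RELT and PVR, at distances of 0.0354, 0.0393 and 0.0491. The nearest to MCM2 were TCF19, KRT80 and LACTB2, at 0.0321, 0.0395 and 0.0446. For MCM3 they were the histone chaperone ASF1B, ALS2CL and RTTN, at 0.0270, 0.0315 and 0.0366. MCM7 had ITPR2, ATP13A3 and MCM3 nearest, at 0.0347, 0.0421 and 0.0514. CCNE2 had the most distant nearest genes, with SGSH, PIM1 and NIPAL4 at 0.0960, 0.114 and 0.117. It also had the fewest reads of the members, 44 to 138 per library, and counting error adds to such distances. Of the members, MCM3 and MCM7 were thus the most alike, and MCM7 ranked 5 of 5724 for MCM3. MCM7 ranked 216 for MCM2, and MCM2 ranked 315 for MCM7.

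Some reads of the members may belong to other genes. The sources used here do not state whether counting used strand, so reads from genes that overlap on opposite strands cannot be told apart. CCNE2 shares 1977 bases with INTS8 and 912 bases with NDUFAF6, both on the opposite strand. INTS8 went from 870 ± 30.7 (SD, n = 3) to 733 ± 22.1 (SD, n = 3) and NDUFAF6 from 207 ± 17.3 (SD, n = 3) to 285 ± 18.6 (SD, n = 3), so the overlapping genes moved in opposite directions, although INTS8 missed the threshold with RLE factors in edgeR (adjusted p = 0.097) and with DESeq2 (adjusted p = 0.178). MCM7 overlaps AP4M1 by 392 bases, and the microRNA genes MIR25, MIR93 and MIR106B lie within it. MCM2 overlaps the antisense gene AC023593.1 by 2331 bases and TPRA1 by 45 bases, both on the opposite strand, and CCNE2 also overlaps the antisense gene AC087752.4 by 462 bases and the pseudogene AC087752.1 by 869 bases. Apart from INTS8 and NDUFAF6, none of these overlapping genes was listed, nor were the PCNA pseudogenes PCNAP1, PCNAP3 and PCNAP4, whose near copies of the sequence could exchange reads with PCNA. CDS2, whose start lies 159 bases from the PCNA gene on the opposite strand, rose from 1592 ± 33.5 (SD, n = 3) to 2230 ± 114 (SD, n = 3), a log2 difference of 0.49 (limma adjusted p = 3.01e-05). The neighbour of MCM2, PODXL2, went from 534 ± 20.5 (SD, n = 3) to 1967 ± 104 (SD, n = 3). Beside MCM3, PAQR8 fell from 346 ± 34.0 (SD, n = 3) to 211 ± 5.69 (SD, n = 3), a log2 difference of -0.70 (limma adjusted p = 0.00021). Beside CCNE2, TP53INP1 rose from 1913 ± 67.5 (SD, n = 3) to 2566 ± 61.3 (SD, n = 3). Of these 4 listed neighbours, 3 rose and 1 fell.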

How the data were processed

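RNA from 6 ARPE-19 samples, 3 per group as the labels give them, was extracted with Trizol and sequenced on an Illumina HiSeq instrument. The submitters' processing notes name HISAT2 2.0.5 and hg38. The study's methods name Cufflinks with RefSeq mRNAs, but the rows have the coordinates of GENCODE release 29 for all 7758 genes. The read counter, strand setting and total depth are not given in the sources used here. The authors deposited a signal per gene and library, which is the read count divided by 1 size factor. All values came out as whole reads within a tolerance of 0.01. Group means, fold changes and p-values that the authors deposited were not used, except to see that no adjusted p-value exceeded 0.05. In 13 rows a symbol had become a date and was replaced from GENCODE.

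A pseudocount of 1 was added to each scaled count, and the log2 values were compared by limma 3.58.1 (R 4.3.3), using its intensity trend and no covariates, two-sided, and with Benjamini-Hochberg adjustment over the 7758 listed genes (threshold 0.05). The unit led to limma in place of the edgeR test planned for raw counts. This scale understates changes of low genes. Alternatives were edgeR 4.0.16 and DESeq2 1.42.0 on the recovered reads, a pseudocount of 0.1, a mean of at least 50, no trend, a replicate block, adjustment as if 60000 genes had been tested, and leaving out each library. The fit was tested on simulated data. The members and lists were chosen with earlier results of these data known. Named genes were METTL3, CCNE1, up to 4 genes per list with the largest absolute log2 difference and a mean of at least 100, the 3 nearest profiles per member and adjoining genes. Other named genes were chosen after their values were seen. Over listed genes with a mean of at least 100, same-numbered libraries did not deviate together (correlations of 0.0245, -0.0409 and -0.049). Such correlations cannot show whether same-numbered libraries shared a culture or batch, and the main fit used no pairing. Replicates differed by more than sampling noise in every pair.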

Additional observations from a re-analysis of the deposited data

How the results depend on the processing

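Over 13 alternatives the log2 difference ranged from -0.51 to -0.30 for PCNA, -0.68 to -0.39 for MCM2, -0.45 to -0.16 for MCM3, -0.39 to -0.13 for MCM7 and -0.997 to -0.58 for CCNE2. Scaling by RLE factors, estimated on the preselected genes, moved the median of all listed genes from -0.21 to -0.09 and gave -0.30 for PCNA, -0.43 for MCM2, -0.20 for MCM3, -0.15 for MCM7 and -0.64 for CCNE2. Of the 51 other genes of replication and S phase entry, between 34 and 47 passed as lower and 4 as higher in 15 alternatives. Over all listed genes these ranges were 3196 to 4054 and 2880 to 3704. The lowest count, 34, came with adjustment as if 60000 genes had been tested. 34 genes passed in every alternative that gave a value, 17 were lost in 1 or more (DNMT1, MMS22L, ASF1B, RFC3, RFC4, TICRR, RNASEH2B, CDKN1B, POLA1, POLD4, RPA2, RRM2B, E2F4, MCM8, DSCC1, PRIM1 and POLE2), and 0 changed direction. METTL3 missed the threshold in 3 alternatives, with RLE factors, with DESeq2 (adjusted p = 0.107) and with 60000 tests (adjusted p = 0.0835), with a log2 difference of -0.17 in the first 2. With a replicate block 47 passed as lower and 4 as higher, 7750 of all listed genes were called, and the members' differences were the same. INTS8 was lost with RLE factors and with DESeq2. The genes had been preselected on these libraries, so an unchanged sign says little about these settings.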
